A study of Mus musculus with 26 samples.

Results

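The genes described here are the kinase P-TEFb, its RNA-bound inhibitor complex and the elongation factors it works with: Hexim1, Cdk9, Ccnt1, Ccnt2, Larp7, Mepce, Aff4, Ell2 and Supt5. They were chosen by symbol: a row of the count table was taken where GENCODE vM21 gives its Ensembl ID 1 of these names, which found all 9 of 9 among 55401 gene IDs. The RNA came from mouse MII oocytes, unfertilised eggs arrested in the second meiotic metaphase (B6D2F1, age 0 h), and from 1-cell embryos made by in vitro fertilisation between B6D2F1 parents (labelled as F2, age 10 h). The first set of libraries (the c-Myc series) holds 7 of control embryos and 7 of embryos incubated for 10 h with 10058-F4, a thiazolidinone that keeps c-Myc from its partner Max, starting 2 h after insemination. The treatment protocol names MYCi975 as an alternative to 10058-F4, while the titles of all 7 treated libraries name 10058-F4. The sources used here give no dose for it. The second set (the amanitin series) holds 4 libraries of MII oocytes, 4 of their control embryos and another 4 whose embryos were given alpha-amanitin (100 µg/ml), a toxin that blocks RNA polymerase II, starting 1 h after insemination and lasting 10 h. Start and duration add up to more than the labelled age of 10 h, and whether treated and control embryos were of the same age was not tested. The labels speak of directly lysed single embryos and do not state outright how many went into each library. They name no donors, cultures or sequencing batches, so n counts libraries, and p-values measure only the spread between libraries, which may be technical.

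RNA polymerase II pauses shortly after it starts a gene, held by the factors DSIF, of which Supt5 is a subunit, and NELF. P-TEFb, the kinase Cdk9 with a cyclin T (Ccnt1 or Ccnt2), phosphorylates both factors and the tail of the polymerase and so releases it. Much of the P-TEFb in a cell is kept inactive on the small nuclear RNA 7SK, which Mepce caps, Larp7 protects at its end and Hexim1 uses as a platform to inhibit the kinase. Active P-TEFb works in the super elongation complex, in which Aff4 is the scaffold and Ell2 an elongation factor. The newly fertilised egg is nearly silent at first and starts to transcribe its own genome during the 1-cell stage, and these genes belong to the machinery of that transcription.

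A promoter sequence from RefSeq (GRCm38.p6) was matched for 8 of the 9 genes, all but Mepce. Shown here are the bases before the first annotated base of Hexim1 (chr11:103116075-103116230, plus strand), of Larp7 (chr3:127553350-127553599, minus strand) and of Aff4 (chr11:53350517-53350766, plus strand), each 5′ to 3′. Hexim1 and Larp7 were called under the c-Myc inhibitor, and Aff4 alone of the 8 holds CACGTG, a sequence that c-Myc is known to bind. Capitals mark the motifs searched on both strands, which are the E box of Myc and Max (CACGTG), the TATA box (searched as TATAA), the CCAAT box (spelled CCAAT), the GC box (spelled GGGCGG) and the cyclic AMP response element (spelled TGACGTCA). No match in the printed stretches overlapped another.
Hexim1: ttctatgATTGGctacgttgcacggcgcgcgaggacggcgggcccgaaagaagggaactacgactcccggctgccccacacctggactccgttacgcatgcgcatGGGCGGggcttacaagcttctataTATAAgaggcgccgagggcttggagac
Larp7: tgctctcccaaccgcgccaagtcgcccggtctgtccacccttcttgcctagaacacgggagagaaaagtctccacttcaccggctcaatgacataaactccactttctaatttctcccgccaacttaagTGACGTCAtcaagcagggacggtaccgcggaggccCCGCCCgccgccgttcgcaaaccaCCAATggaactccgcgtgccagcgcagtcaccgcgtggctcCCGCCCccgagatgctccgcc
Aff4: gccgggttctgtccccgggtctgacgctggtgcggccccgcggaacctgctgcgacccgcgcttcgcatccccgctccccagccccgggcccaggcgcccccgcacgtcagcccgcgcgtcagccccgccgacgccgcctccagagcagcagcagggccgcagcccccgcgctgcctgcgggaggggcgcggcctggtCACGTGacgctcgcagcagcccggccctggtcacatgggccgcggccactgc
The printed Hexim1 stretch holds TATAA, with its first letter 27 bases before the gene's first base in GENCODE. In the 250 bases before the RefSeq start, CACGTG occurred in Aff4 alone of the 8 genes, and in 6.02% of all 32851 listed promoters. TATAA occurred in Hexim1 alone of the 8 and in 22.8% of all promoters, and TGACGTCA in Larp7 and Ell2 and in 1.55%. CCAAT was found in 5 of the 8 (Hexim1, Cdk9, Ccnt2, Larp7 and Ell2) against 33.8% of all promoters, and GGGCGG in all of the 8 but Aff4 against 32.7%. These are matches of letters and not measured binding sites, and no form of the E box other than CACGTG was searched.

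The libraries of the first set had totals of 20566278 to 27266040 counts and those of the second 5371602 to 31540627. Levels are given in CPM, the unit being 1 count in 1000000 of its library, and as a share they cannot tell less RNA of a gene from more RNA of other genes. Where a library has no count of a gene, 3 counts set the upper limit, which lay between 0.11 and 0.146 CPM in the first set and between 0.0951 and 0.558 CPM in the second and covers counting error only. No library was a copy of another. Alpha-amanitin replicate 1 (31540627 counts, 21984 genes detected) and replicate 3 (5371602 counts, 9497 genes) stood apart from the rest of the second set. All embryo libraries of that set were also less alike within their group than the other libraries. A library's median Spearman rank correlation with its group was 0.702 to 0.739 with alpha-amanitin and 0.776 to 0.81 in second-set controls. It was 0.847 to 0.851 in oocytes and 0.85 to 0.88 in the first set. All 14 oocyte markers, Gdf9, Mos and Zp3 among them, had counts in each group. The 11 sperm and spermatid markers summed to group means of 230 to 436 CPM, nearly all from Odf2, at 217 CPM in oocytes, 322 in first-set controls and 423 with the c-Myc inhibitor, where it was called higher (log2 0.41, edgeR adjusted p = 0.0112). Prm2 had a mean of 5.77 to 11.2 CPM in every group, oocytes included, while Tnp1, Tnp2, Smcp and Gapdhs were at 0 in all 5 groups.

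Under the c-Myc inhibitor 2 of the 9 members, Hexim1 and Larp7, were called lower by edgeR (adjusted p under 0.05) and none higher, beside 4.08% of the 13003 genes tested called lower and 6.82% higher. The members' median log2 difference was -0.09, and that of all genes tested was -0.00049. Groups that did not overlap were seen for Hexim1 alone of the 9, beside 1.32% of all genes tested whose treated libraries all lay below the controls.

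Hexim1, the protein that holds P-TEFb inactive on 7SK RNA (chromosome 11, 103116231 to 103119725, GRCm38, 1 exon), was found in every control library of the first set and in none of those given the c-Myc inhibitor. The 7 controls had 3.19, 1.90, 1.66, 6.64, 2.48, 4.69 and 10.2 CPM, from 35 to 257 counts a library. The 7 treated libraries all had 0 counts. The groups did not overlap, and the controls themselves differed widely.

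Mean Hexim1 fell from 4.39 ± 3.09 CPM (SD, n = 7) to below the 0.0180 CPM that 3 counts over the whole treated group allow. The control mean was 243.6 times that limit, which covers counting error only and not the spread between libraries. By edgeR's quasi-likelihood test the adjusted p was 9.06e-06, rank 149 of 13003 genes by p, and by a two-sided exact permutation test p = 0.000583, the smallest that 7 against 7 can give (adjusted p = 0.00233 over 4 comparisons of this gene). DESeq2 gave no adjusted p for Hexim1. The call held whichever of the 14 libraries was left out.

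In the second set Hexim1 was hardly seen at all. Oocyte replicate 2 had 1.13 CPM (26 counts) and the other three oocyte libraries had 0. All 4 control embryos had 0, and alpha-amanitin replicate 2 had 0.563 CPM (11 counts) while the other three treated libraries had 0. So the untreated embryos of the first set stood above all 12 libraries of the second set, including control embryos of the same labelled age.

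The floor over the 4 controls of the second set was 0.0399 CPM, which again covers counting error only. The mean of the first-set controls was 110 times that floor. This was not tested, since the control libraries of both groups differ in their set, and set and level cannot be told apart. Hexim1 lay below the filter on low counts in the second set. Exact permutation tests there gave p = 1 for each of 3 comparisons and could give nothing else. With counts in at most 1 library of each group, every relabelling gives a difference at least as large. The smallest p that 4 against 4 allows, 0.0286, was therefore out of reach.

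**Figure D1:**
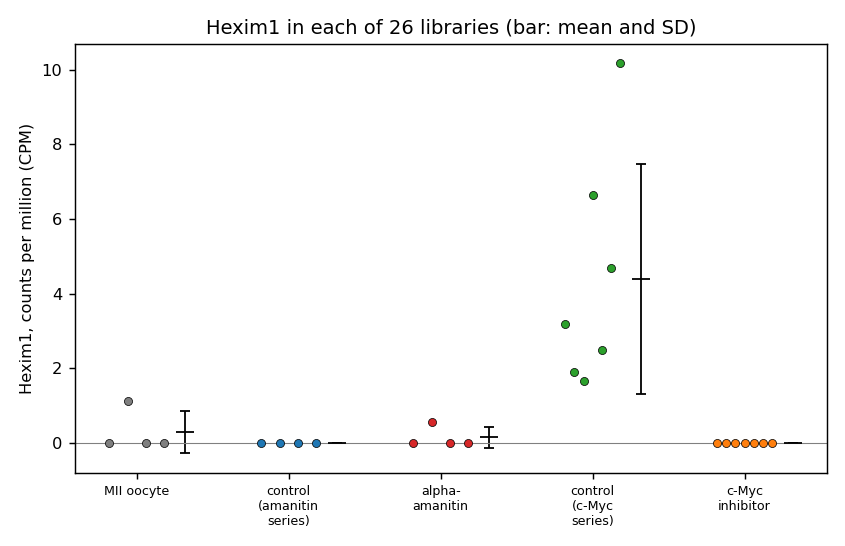
Hexim1 in CPM (vertical axis) in each of 26 libraries by group (horizontal axis), each point 1 library and the bar beside it the mean and SD. The 7 first-set controls lie between 1.66 and 10.2 CPM, the 7 libraries with the c-Myc inhibitor at 0, and 1 oocyte and 1 alpha-amanitin library are the other two with counts.

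Few genes shared the pattern of Hexim1 in the first set, with counts in every control and none in treated libraries. Of 55401 gene IDs, 7 had counts in all 7 controls and in none of the 7 treated libraries, out of 11588 with counts in all controls. The 11588 were not matched for level, and the 7 had only 1 to 257 counts in a control library. The reverse pattern had 0 genes of 11660 with counts in all treated libraries. Besides Hexim1 the 7 included Gadd45g, a stress-response gene, and Duxf3, of the Dux family of early embryonic activators, which were named after their values were seen, and the rest were predicted genes. Of the 7 genes, 3 had no count in any second-set control, and Hexim1 was 1 of them.

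Genes most like Hexim1 were sought by Pearson's r of log2(CPM + 1), over genes whose mean reached 1 CPM in some group. Over the 14 first-set libraries the closest of 12757 were Efl1 (r = 0.918), Parl (0.916), Wdr43 (0.915), Terf1 (0.908) and Taf7 (0.901). All 5 had counts in all 26 libraries. Over all 26 libraries the closest were Zfp446 (r = 0.811), Xbp1 (0.745), Kdm2b (0.734), Ccnb1 (0.724) and Tmem159 (0.715). Zfp446 and Xbp1 had no counts in any library of the second set. Zfp446, Xbp1 and Tmem159 reached the minimum of 1 CPM in first-set controls alone (means of 1.81, 1.14 and 2.34 CPM), so their likeness to Hexim1 follows in part from that minimum. Among the other P-TEFb genes the highest r with Hexim1 over the 26 was that of Larp7 (0.512, rank 108 of 13183 genes), then Cdk9 (0.462, rank 221). Over the 14 first-set libraries their order was reversed, with Cdk9 at 0.604 (rank 804 of 12757) and Larp7 at 0.574 (rank 980). Mepce (-0.459) and Supt5 (-0.332) were negative there. The libraries share their treatment and their set, so these values describe this collection only.

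Larp7, which binds the end of 7SK RNA (chromosome 3, 127536714 to 127553349), was the only other member called under the c-Myc inhibitor. Controls ranged from 129.2 to 167 CPM (median 141) and treated libraries from 96.7 to 129.5 (median 126). The lowest control and the highest treated library overlapped only barely. Larp7 fell by 0.27 on the log2 scale (SE 0.09), from 145 ± 13.7 to 119 ± 12.4 CPM (SD, n = 7 each), with an edgeR adjusted p of 0.0496, next to the threshold of 0.05. With each of the 14 libraries left out in turn, the call held only without control replicate 8 and was lost in the other 13 fits. Over all alternatives, DESeq2 and voom included, the adjusted p of Larp7 ran from 0.00956 to 0.473. The direction was the same in all 21 alternatives.

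Oocytes had 71.5, 76.6, 69.7 and 87.1 CPM of Larp7, second-set controls 41.8, 69.5, 61.0 and 86.4, and alpha-amanitin embryos 98.6, 84.2, 90.5 and 136. Alpha-amanitin embryos thus overlapped their controls through 1 control library. The log2 difference of Larp7 was 0.61 (SE 0.29) and was not called (edgeR adjusted p = 0.641). First-set controls had 2.25 times the mean of second-set controls. This was not tested, since set and level cannot be told apart.

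The c-Myc inhibitor's effect on Larp7 minus that of alpha-amanitin was -0.88 (SE 0.23) on the log2 scale, with an edgeR adjusted p of 0.0601, which missed the threshold. That difference was called in 8 of 30 alternatives, among them RLE scaling, DESeq2 and the fit without both of the alpha-amanitin libraries that stood apart. Of the 9 members 1, Hexim1, was called lower in this contrast and 0 higher, beside 0.367% and 0.678% of all 15790 genes tested. The value for Hexim1 (edgeR adjusted p = 0.0175) does not show that the effects differ. All 4 second-set controls had 0 counts, so a fall of Hexim1 under alpha-amanitin could not be measured. The call also rested on alpha-amanitin replicate 2, the single treated library of that set with Hexim1 counts, and was lost without it (edgeR adjusted p = 1.00).

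Mepce, which caps 7SK RNA (chromosome 5, 137781906 to 137787655), was at 136 ± 14.8 CPM under the c-Myc inhibitor and 121 ± 19.7 in controls (SD, n = 7 each), and was not called (log2 0.19, SE 0.11, edgeR adjusted p = 0.351). Its second-set levels were 94.6, 90.9, 105 and 87.0 CPM in oocytes, 132, 96.3, 126 and 130 in controls and 76.4, 126, 62.4 and 83.1 with alpha-amanitin. Of the control embryos 3 of 4 stood above all oocytes, and of the alpha-amanitin embryos 3 of 4 stood below all controls. Neither contrast was called, at 0.40 (SE 0.25, edgeR adjusted p = 0.623) and -0.52 (SE 0.25, adjusted p = 0.675) on the log2 scale.

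In the libraries of the first set the 14 oocyte markers summed to 5888 to 8425 CPM in controls and 9196 to 11257 CPM in treated libraries. Genes detected numbered 15693 to 17518 in controls and 15338 to 16547 in treated libraries. By edgeR 7 of the 14 oocyte markers were called higher and 0 lower, beside 6.82% and 4.08% of all genes tested. The higher sum came mostly from Gdf9, an oocyte growth factor, and H1foo, the oocyte linker histone. Their means rose from 415 to 1944 CPM and from 557 to 1740 CPM. Zar1, Mos, Zp1, Zp2 and Oosp1 were the other markers called higher. Bmp15, Dppa3, Nlrp5 and Ooep had lower means in treated libraries and were not called. The part of these shifts in the results for Hexim1 and Larp7 was not tested. Cumulus and granulosa markers summed to 13.3 to 32.6 CPM in controls and 10.8 to 26.2 CPM in treated libraries, with counts for 11 and 9 of 13 markers.

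Cdk9, the kinase itself (chromosome 2, 32705784 to 32713076), had a lower median under the c-Myc inhibitor and was not called. Controls of the first set ranged from 4.56 to 13.5 CPM (median 11.7) and treated libraries from 3.11 to 14.1 (median 5.96). Of the treated libraries 5 of 7 lay at or below 7.08 CPM, whereas 6 of 7 controls lay at or above 9.43, with the extremes of each group reaching into the other. The difference of Cdk9 was -0.59 (SE 0.33) on the log2 scale (edgeR adjusted p = 0.322).

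In the second set Cdk9 had 6.61, 7.97, 3.19 and 3.39 CPM in oocytes, 0, 0.610, 2.28 and 9.35 in controls and 20.1, 2.51, 0 and 5.78 with alpha-amanitin. The spread within each embryo group covered the whole range of oocytes. Alpha-amanitin replicate 1, the deepest library, held the 20.1 CPM, and replicate 3, the shallowest, the 0. The log2 difference of 1.19 (SE 1.75, edgeR adjusted p = 0.998) became 0.36 without both of these libraries, and neither value was called.

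The cyclins that partner Cdk9 differed between groups by less than the spread of libraries. Ccnt2 (chromosome 1, 127774164 to 127808061) was at 199 ± 15.9 CPM in first-set controls and 190 ± 29.6 with the c-Myc inhibitor (SD, n = 7 each). In the second set its means were 199 CPM in oocytes, 177 in controls and 185 with alpha-amanitin (n = 4 each). Ccnt1 (chromosome 15, 98538689 to 98570923) was at 37.1 ± 6.91 and 34.5 ± 8.48 CPM in the first set and at 35.6, 33.6 and 37.8 CPM in the same 3 groups of the second. All ranges of either cyclin overlapped between all 5 groups. The largest log2 difference of Ccnt2 was -0.14 (SE 0.23) and of Ccnt1 0.13 (SE 0.44) over the 4 contrasts with a single control group, and none was called. An antisense gene covers 7.59% of the exon bases of Ccnt1, and since the strand setting of the counting is not given, its reads cannot be told apart.

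**Figure D2:**
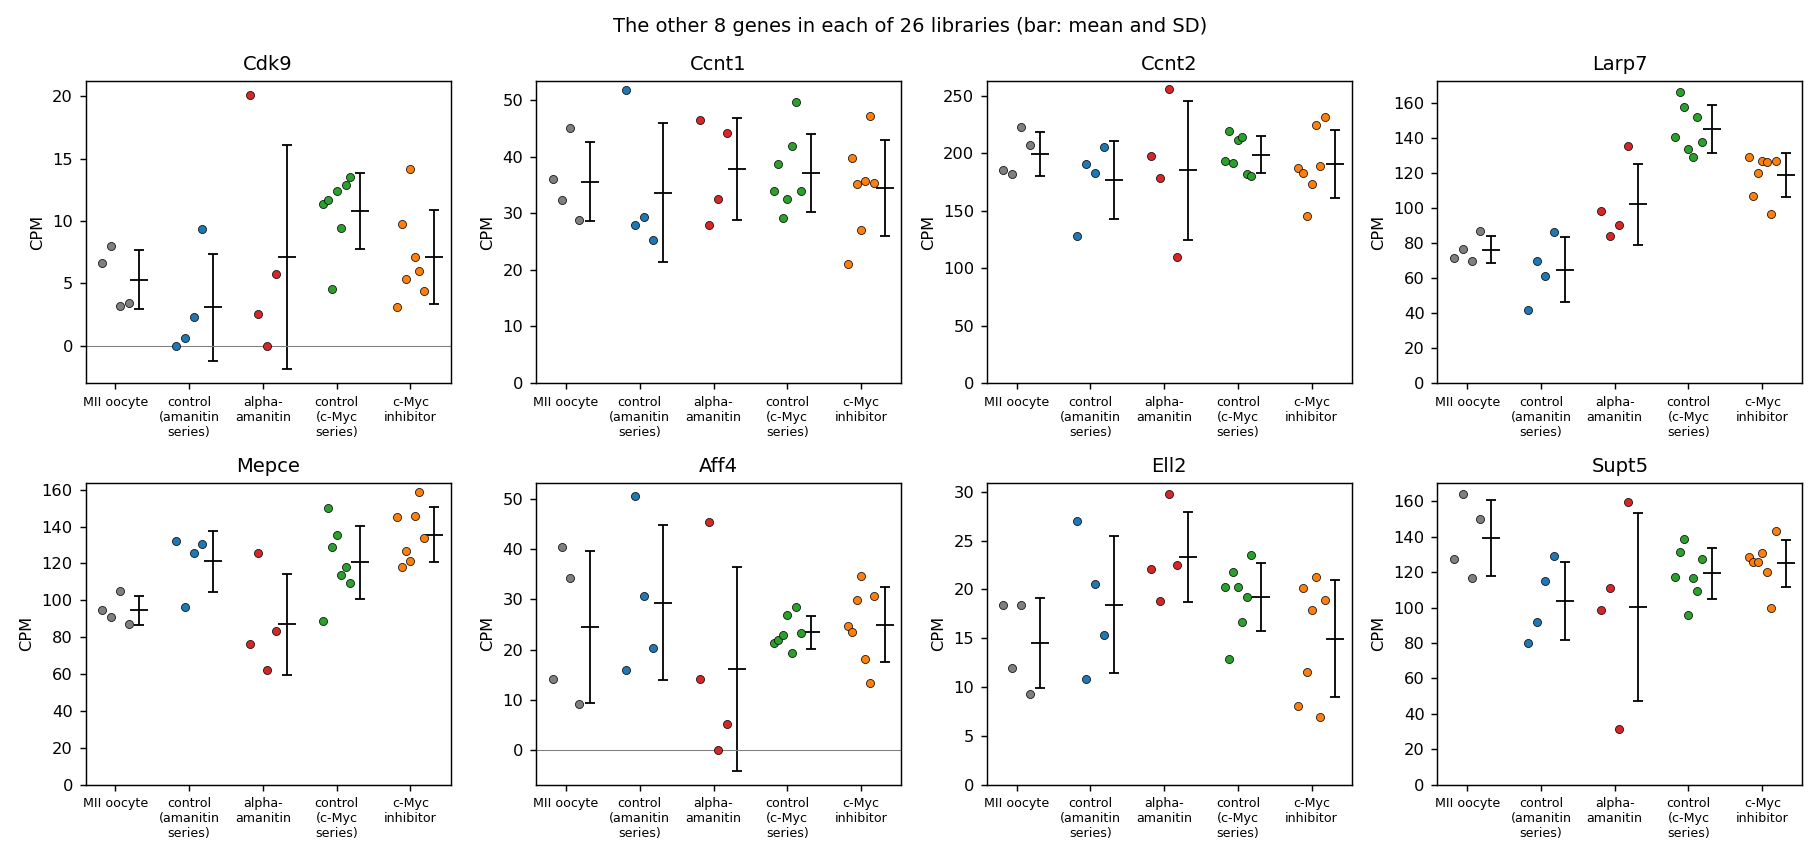
Levels in CPM (vertical axes) of Cdk9, Ccnt1, Ccnt2, Larp7, Mepce, Aff4, Ell2 and Supt5 in each of 26 libraries by group, each point 1 library and each bar the mean and SD. Larp7 lies between 96.7 and 167 CPM in the first set, and between 41.8 and 87.1 CPM in oocytes and second-set controls. With alpha-amanitin it lies between 84.2 and 136 CPM, and set and level cannot be told apart. Ccnt1 and Ccnt2 overlap in all 5 groups.

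Aff4, the scaffold of the super elongation complex (chromosome 11, 53350833 to 53421830), varied less between libraries of the first set than of the second. Controls of the first set ranged from 19.2 to 28.5 CPM and treated libraries from 13.3 to 34.6. Oocytes had 14.2, 40.4, 34.2 and 9.15 CPM, second-set controls 15.8, 50.5, 30.6 and 20.2, and alpha-amanitin embryos 14.1, 45.4, 0 and 5.15. The 0 was that of replicate 3. The coefficient of variation of Aff4 was 13.7% in first-set controls, 61.9% in oocytes and 126% with alpha-amanitin. No contrast of Aff4 was called (log2 0.10 for the c-Myc inhibitor and -0.91, SE 0.98, for alpha-amanitin).

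Ell2, an elongation factor of the same complex (chromosome 13, 75706757 to 75772364), was at 19.2 ± 3.50 CPM in first-set controls and 15.0 ± 5.98 with the c-Myc inhibitor (SD, n = 7 each). Of the treated libraries 3 of 7 lay below all controls, at 8.04, 11.6 and 6.94 CPM, and the rest were within the range of the controls. The log2 difference of Ell2 was -0.35 (SE 0.25, edgeR adjusted p = 0.489). In the second set Ell2 had 18.4, 12.0, 18.4 and 9.25 CPM in oocytes, 27.1, 10.8, 20.5 and 15.3 in controls and 22.1, 18.8, 29.8 and 22.5 with alpha-amanitin. The controls overlapped both of the other groups. Oocytes and alpha-amanitin embryos did not overlap, as was so upward for 3.53% of all genes tested, and the contrast was not called (log2 0.68, SE 0.65, edgeR adjusted p = 0.942).

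Supt5, the large subunit of DSIF and a substrate of P-TEFb (chromosome 7, 28314891 to 28338746), was at 119 ± 14.4 CPM in first-set controls and 125 ± 13.2 with the c-Myc inhibitor (SD, n = 7 each). Oocytes had 127, 164, 117 and 150 CPM, second-set controls 79.9, 91.9, 115 and 129, and alpha-amanitin embryos 98.5, 111, 31.3 and 160. The lowest value was again that of alpha-amanitin replicate 3. Control embryos minus oocytes gave -0.39 (SE 0.34) on the log2 scale, with 3 of 4 embryos below all oocytes, and no contrast of Supt5 was called. An antisense gene covers 7.51% of its exon bases.

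Of the 8 members that passed the filter in the second set, none was called in any of its 3 contrasts. The coefficient of variation between libraries that edgeR estimated over all genes was 1.12 there, against 0.555 in the first set. Differences were thus harder to call in the second set. Alpha-amanitin gave calls for 0.0228% (higher) and 0.00761% (lower) of 13133 genes by edgeR, with 986 genes at an unadjusted p under 0.05. Among the members Larp7 alone was under that value, with an unadjusted edgeR p of 0.0462. Control embryos minus oocytes gave 1.11% higher and 1.78% lower of the 13133 genes, with 1846 genes at an unadjusted p under 0.05. Alpha-amanitin embryos minus oocytes gave 0.442% and 1.27% of the 13133, with 1387 genes at an unadjusted p under 0.05. No member was under that value in either contrast. DESeq2 called 91 genes higher and 32 lower with alpha-amanitin and no member. The contrasts of the second set share libraries, so their values stand side by side and are not separate evidence. Without both of the alpha-amanitin libraries that stood apart, no member was called in either alpha-amanitin contrast.

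**Figure D3:**
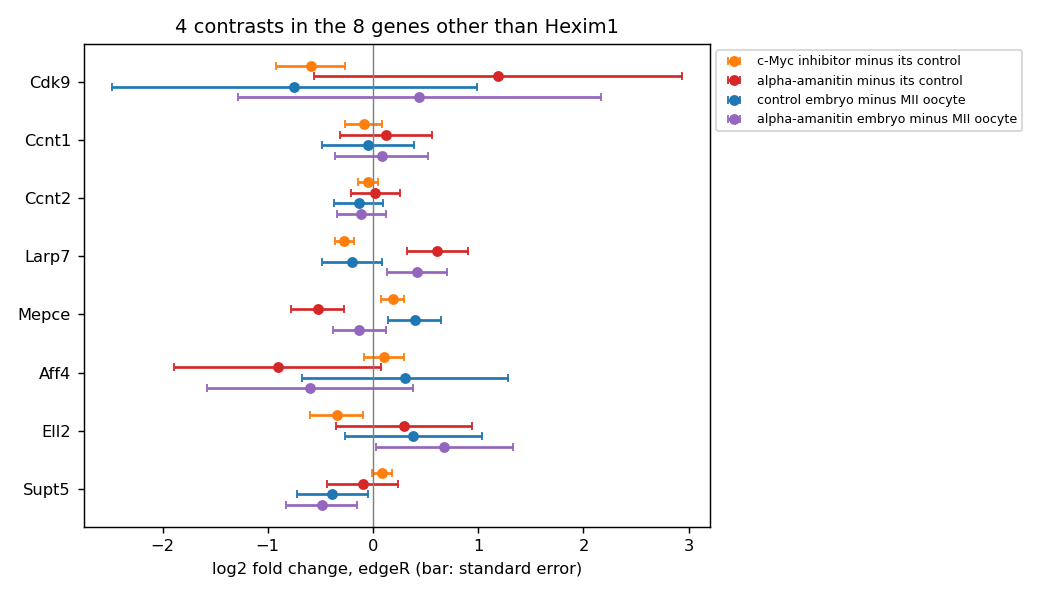
Log2 fold change by edgeR (horizontal axis) with its standard error for the 8 genes other than Hexim1 in 4 contrasts, which are shown by colour. Larp7 under the c-Myc inhibitor, at -0.27, is the only called value, and the bars of Cdk9 and Aff4 in the second set are the widest, with standard errors from 0.977 to 1.75.

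Levels of different genes were compared per length, as RPKM, CPM divided by the kilobases of merged exons. In first-set controls the order by mean was Larp7 at 61.5 RPKM, Mepce at 33.9, Supt5 at 20.7, Ccnt2 at 16.1, Ccnt1 at 4.05, Cdk9 at 2.35, Ell2 at 1.96, Aff4 at 1.74 and Hexim1 at 1.26. Neighbours that overlapped over the 7 libraries were Supt5 with Ccnt2, and Cdk9, Ell2, Aff4 and Hexim1 with each other. By mean, transcripts of proteins that hold P-TEFb on 7SK RNA thus stood both first (Larp7) and last (Hexim1), though Hexim1 overlapped Cdk9, Ell2 and Aff4. Larp7 was first in 4 of the 5 groups, the exception being second-set controls, where Mepce had 34.1 and Larp7 27.3 RPKM. Hexim1 was last in all 5.

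Between the cyclins, Ccnt2 was at 4.08 ± 0.729 times Ccnt1 per length in first-set controls and 4.32 ± 1.30 times with the c-Myc inhibitor (SD, n = 7 each). In oocytes it was at 4.24 ± 0.749 times (n = 4), and the ratio was above 1 in all 26 libraries, with a lowest value of 1.83. Per length Cdk9 was at 0.584 ± 0.172 times Ccnt1 in first-set controls and 0.430 ± 0.281 times with the c-Myc inhibitor. It was at 0.307 ± 0.152 times in oocytes, 0.233 ± 0.341 in second-set controls and 0.324 ± 0.373 with alpha-amanitin, and these ranges overlapped.

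**Figure D4:**
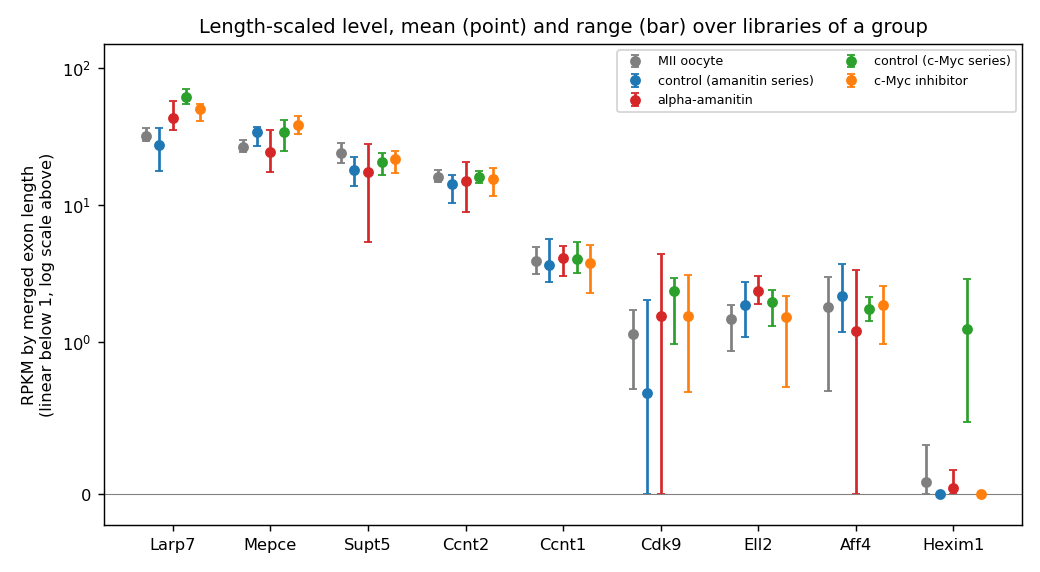
Length-scaled level in RPKM (vertical axis, linear below 1 and logarithmic above) of the 9 genes in 5 groups, each point the mean and each bar the lowest to highest library. Larp7, Mepce, Supt5 and Ccnt2 form the upper part, and Hexim1 rises above 1 RPKM on average only in first-set controls.

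The wider elongation machinery was described with 53 further genes: 7SK and bromodomain partners of P-TEFb, the super and little elongation complexes, pausing factors, the PAF complex with elongation chaperones, and other kinases and phosphatases of the polymerase tail. Under the c-Myc inhibitor 9 of the 51 tested were called lower (17.6%, beside 4.08% of all genes) and 1 higher (1.96%, beside 6.82%). Their median log2 difference was -0.07, and that of all genes was -0.00049. In 1 fit of all 5 groups the lower genes numbered 2 of 52, beside 115 of all 16319 tested. With each library left out they numbered 5 to 10 of 51, beside 391 to 571 of all genes, and were fewest without control replicate 4 (5, beside 425 of 13302) and control replicate 5 (6, beside 395 of 13306). The sum of oocyte markers was higher in treated libraries, mostly through Gdf9 and H1foo, while most called genes of this list were lower. The part of that sum in these calls was not tested.

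Genes of this list that fell under the c-Myc inhibitor included Cdk12, another kinase of the polymerase tail (log2 -0.30), Hnrnpa1 (-0.60) and Ddx21 (-0.42), both partners of 7SK RNA, the PAF subunits Leo1 (-0.76) and Cdc73 (-0.61), Supt16, of the histone chaperone FACT (-0.30), and Ice2, of the little elongation complex (-0.39). Of the genes named here, Hnrnpa1, Cdk12 and Ice2 had groups that did not overlap, as was so downward for 1.32% of all genes tested. They were named for their calls in the same contrast, so this is not separate evidence. Ice1, the partner of Ice2, rose by 0.22, with an edgeR adjusted p of 0.0487, which held for 3 of 14 libraries left out. The call of Nelfa, a subunit of the pausing factor NELF (-0.30), held in 8 of 14, that of Ddx21 in 9, of Cdc73 in 10 and of Ice2 in 13. Cdk12, Leo1, Supt16 and Hnrnpa1 kept theirs in all 14. In 1 fit of all 5 groups, Hnrnpa1 alone of the list's genes named here kept its call.

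7SK RNA itself, Rn7sk, was at 915 ± 176 CPM in first-set controls and 862 ± 93.3 with the c-Myc inhibitor (SD, n = 7 each; log2 -0.07, edgeR adjusted p = 0.784). With alpha-amanitin Rn7sk was at 1031 ± 248 against 1584 ± 343 CPM (n = 4 each), a log2 difference of -0.67 (SE 0.18) that was not called (edgeR adjusted p = 0.524). Hexim2, the paralogue of Hexim1, had counts in all 26 libraries, at 36.1 ± 7.65 CPM with the c-Myc inhibitor and 31.1 ± 5.69 in controls (n = 7 each; log2 0.23, edgeR adjusted p = 0.476). It was at 41.2 CPM in oocytes and 17.0 in second-set controls, which did not overlap, as was so downward for 10.1% of all genes tested. This contrast of Hexim2 was not called (log2 -1.24, SE 0.54, edgeR adjusted p = 0.279).

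Between oocytes and control embryos of the second set 2 of 51 of these genes were called higher (3.92%, beside 1.11% of all genes) and none lower (beside 1.78%). Among them was Mllt3, a chromatin reader of the super elongation complex, which rose from 332 to 549 CPM (log2 0.76). With alpha-amanitin against oocytes Mllt3 was again called higher, and Leo1 lower, at 22.9 against 85.5 CPM (log2 -1.90). The call of Mllt3 held with 2 and that of Leo1 with 5 of 12 libraries left out in turn, and that of Leo1 was lost without both of the alpha-amanitin libraries that stood apart. Alpha-amanitin against its control gave no call by edgeR among the 51 tested, beside 0.0228% higher and 0.00761% lower of all genes. The difference of both inhibitors' effects gave none among 52, beside 0.678% higher and 0.367% lower of all genes. With so few calls among all genes, none would be usual for a list of this size.

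**Figure D5:**
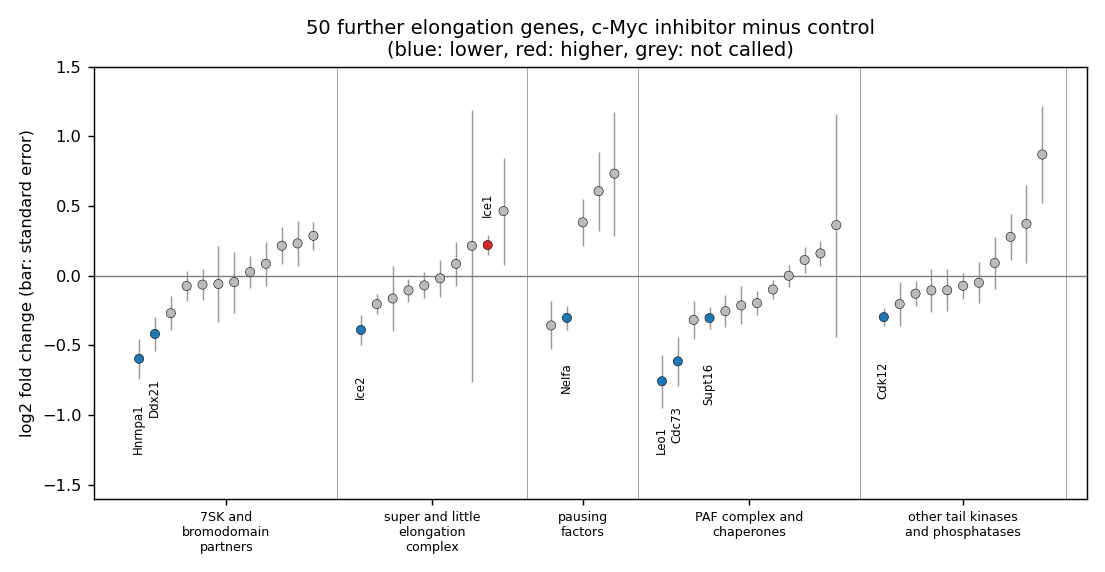
Log2 fold change by edgeR, c-Myc inhibitor minus control (vertical axis, bars are standard errors), of 50 further elongation genes in 5 lists, 1 point a gene. The 8 named in blue were called lower, from Leo1 at -0.76 to Cdk12 at -0.30, and Ice1 in red was called higher at 0.22.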

How the data were processed

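The authors deposited raw counts per gene for 26 libraries and 55401 Ensembl IDs. Lysed oocytes and embryos went straight into library preparation with a SMARTer Stranded kit for total RNA at very low input (Pico v2), per the labels' protocols. Per the submitters' processing notes, cutadapt 1.7.1, STAR 2.5.0a and GRCm38 were used. The sources used here do not give how reads were assigned to genes, or with which strand setting and annotation. Symbols, coordinates and merged exon lengths came from GENCODE vM21.

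The main test was edgeR 4.0.16 in R 4.3.3 (quasi-likelihood F test, TMM, filterByExpr with minimum count 10 and minimum total 15, Benjamini-Hochberg over all genes tested, threshold 0.05), checked on simulated counts. "Called" means past that threshold. The standard error is the log2 fold change divided by the root of F. The c-Myc contrast used 14 libraries, the second set 1 fit of its 12, and the difference of effects 1 fit of 22. Levels are CPM of raw totals. Alternatives were DESeq2 1.42.0, limma 3.58.1 voom, RLE scaling, no filter, a filter at 50 counts, 1 fit of all 5 groups, a replicate block, and each library left out. Leaving out alpha-amanitin libraries 1 and 3 together was chosen after seeing the data. The members and gene lists were chosen with earlier results of these data known. Beside the members, the rule named Hexim2, Rn7sk, up to 8 called genes of the wider list per contrast by smallest p, and the 5 genes with the highest r with Hexim1, leaving out predicted genes. Nelfa, Ice1, Gadd45g and Duxf3 were added after their values were seen. A gene of the wider list that the rule names is counted and not reported here.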

Additional observations from a re-analysis of the deposited data

Results flagged for a closer look

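Of 43 pairs of a member and a group, 3 held a library far from the others. Chance alone gives about 1 in 20, a rate that does not hold where the other libraries are at 0, since any count then stands apart. Hexim1 was at 1.13 CPM in MII oocyte replicate 2 and at 0.563 CPM in alpha-amanitin replicate 2, the rest of each group having 0 counts. Ccnt1 was at 51.9 CPM in control replicate 1 of the second set, whose other libraries had 25.2 to 29.3 CPM. For Hexim1 the c-Myc inhibitor's effect minus that of alpha-amanitin had an edgeR adjusted p of 0.0175, but with 0 counts in all 4 second-set controls a fall under alpha-amanitin could not be measured, so the value does not show that the effects differ. It was lost without alpha-amanitin replicate 2.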

How the results depend on the processing

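Hexim1 was called lower under the c-Myc inhibitor in all 19 alternatives that gave a value. DESeq2 gave no adjusted p for it and a filter at 50 counts removed it. Members called lower under the c-Myc inhibitor numbered 1 in place of 2 with DESeq2, no filter, a filter at 50 counts, a replicate block and 1 fit of all 5 groups, and 1 to 2 with each library left out. For the difference of effects they numbered 2 in place of 1 with RLE scaling, DESeq2, a filter at 50 counts, 1 fit of all 5 groups and without alpha-amanitin libraries 1 and 3, and 1 to 2 with each library left out, where members called higher numbered 0 to 1. Under the c-Myc inhibitor the member left was Larp7 with DESeq2 and a filter at 50 counts. It was Hexim1 with no filter, the replicate block and 1 fit of all 5 groups, where Larp7 was not called. For the difference of effects the member added was Larp7, and the one called higher was Mepce. Why these calls shifted was not tested.

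Same-numbered libraries did not deviate together (correlations -0.0391 to 0.0435 in the first set and -0.0161 to 0.0238 in the second), so the numbers were not taken as pairs. A replicate block gave 291 genes lower for the c-Myc inhibitor, 0 higher and 0 lower for alpha-amanitin, and 41 higher, 3 lower and 0 members for the difference of effects, where Hexim1 had -12.86 (edgeR adjusted p = 0.471). Of the wider elongation genes 5 of 51 were lower with the block, and the calls of Cdc73, Nelfa, Supt16 and Leo1 were lost. With the block, Ccnt2 was 0.030 and Aff4 -0.030 for the c-Myc inhibitor, Ccnt2 -0.000376 for alpha-amanitin, Cdk9 -0.43 for alpha-amanitin minus oocyte and Ccnt2 0.051 for the difference of effects, all of the opposite sign and uncalled.

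DESeq2 called 859 genes lower for the c-Myc inhibitor, 91 higher and 32 lower for alpha-amanitin, 285 and 484 for control minus oocyte, 219 and 311 for alpha-amanitin minus oocyte, and 413 and 629 for the difference of effects. Limma voom called 7 lower for alpha-amanitin, 280 higher and 660 lower for control minus oocyte, and 141 and 401 for alpha-amanitin minus oocyte. No filter gave 74 and 15 for alpha-amanitin, 186 and 286 for alpha-amanitin minus oocyte, and 234 and 209 for the difference. One fit of all groups gave 266 and 115 for the c-Myc inhibitor, 63 and 40, 572 and 837, and 329 and 530 for the contrasts of the second set in the same order, and 90 lower for the difference. Without alpha-amanitin libraries 1 and 3 the difference had 98 lower. With each library left out, calls ran from 0 to 4 higher and 0 to 2 lower for alpha-amanitin, 63 to 291 and 146 to 434 for control minus oocyte, 20 to 82 and 102 to 248 for alpha-amanitin minus oocyte, and 67 to 167 and 25 to 113 for the difference.

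Other changes of sign, all uncalled, were as follows. With voom, alpha-amanitin gave -0.12 for Ccnt2 and 0.022 for Supt5, alpha-amanitin minus oocyte -0.65 for Cdk9, and the difference 0.084 for Ccnt2. Without alpha-amanitin libraries 1 and 3, alpha-amanitin gave -0.37 for Ccnt2 and 0.31 for Supt5, alpha-amanitin minus oocyte -0.38 for Cdk9, -0.013 for Ccnt1, 0.12 for Mepce and 0.026 for Aff4, and the difference 0.31 for Ccnt2 and -0.24 for Supt5. With each library left out, the c-Myc inhibitor gave -0.18 to 0.0062 for Ccnt1 and -0.099 to 0.0083 for Ccnt2. Alpha-amanitin gave -0.21 to 2.84 for Cdk9, -0.0092 to 0.40 for Ccnt1, -0.19 to 0.20 for Ccnt2 and -0.42 to 0.18 for Supt5. Control minus oocyte gave -0.32 to 0.10 for Ccnt1 and -0.11 to 0.63 for Aff4. Alpha-amanitin minus oocyte gave -0.96 to 0.83 for Cdk9, -0.062 to 0.21 for Ccnt1 and -0.32 to 0.068 for Ccnt2, and the difference -0.26 to 0.13 for Ccnt2 and -0.10 to 0.49 for Supt5. TMM-scaled totals moved no group mean of a member by more than its SD. Depth limits Hexim1 most in alpha-amanitin replicate 3, where no count allows up to 0.558 CPM.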
